A study of Mus musculus with 12 samples.

Results

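Cell cycle and mitosis genes were followed in sinusoidal endothelial and stellate cell fractions of fibrotic and control mouse livers. The members were 40 genes chosen by symbol, from the G1 cyclins through the replication licensing factors and nucleotide supply to the mitotic cyclins, kinases, checkpoint proteins and spindle motors, and all 40 were found among the 23472 gene entries of the deposited table. Liver sinusoidal endothelial cells (SECs) are fenestrated, scavenging cells lining the capillaries of the liver, and the stellate cells (HSCs) beside them are pericytes that store vitamin A. Bulk RNA sequencing was made of 12 libraries in 4 groups of 3. F-SEC and F-HSC were the fractions of fibrotic livers, from male C57BL/6 mice injected with carbon tetrachloride (CCl4), a hepatotoxin that scars the organ when given repeatedly, dosed at 0.6 µl for each g of weight as a 15% solution in olive oil, 2 times a week for 6 weeks. Q-SEC and Q-HSC came from mice that received olive oil. Injections began at 6 to 8 weeks of age and the mice of all 4 groups were 12 to 14 weeks old. Nothing in the labels tells if a group's 3 libraries stem from different mice or from pools, so p-values here measure the spread among libraries and no more.

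Dividing cells switch these genes on in order. Cyclin D and cyclin E, with their kinases, release the E2F transcription factors from the retinoblastoma protein, E2F then drives the genes for origin licensing, the replication clamp and nucleotide synthesis, and in the following G2 phase the MuvB complex, with B-MYB and FOXM1, drives cyclin B and the mitotic apparatus. In resting cells the DREAM complex holds many of these genes silent. Most cells of a healthy adult liver are not dividing, and injury brings hepatocytes, endothelial cells, stellate cells and macrophages into the cycle.

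The promoters of the 8 members with the lowest adjusted p in any comparison are shown because 7 of the 8 belong to the late wave, whose promoters are known for CCAAT and CHR elements. Each line holds the 200 bases before the RefSeq start of the gene in GRCm38.p6, read 5′ to 3′ on the strand of the gene, and the capitals mark CCAAT, the word of the NF-Y factor, and TTTGAA, the CHR word (cell cycle genes homology region) bound by the MuvB complex, each on either strand (ATTGG and TTCAAA on the other strand).
Mki67 (chr7:135716380-135716579, minus strand): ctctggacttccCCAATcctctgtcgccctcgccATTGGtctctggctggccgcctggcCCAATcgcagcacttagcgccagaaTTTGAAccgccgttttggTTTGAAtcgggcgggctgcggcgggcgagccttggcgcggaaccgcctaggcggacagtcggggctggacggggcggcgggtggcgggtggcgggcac
Cenpe (chr3:135212363-135212562, plus strand): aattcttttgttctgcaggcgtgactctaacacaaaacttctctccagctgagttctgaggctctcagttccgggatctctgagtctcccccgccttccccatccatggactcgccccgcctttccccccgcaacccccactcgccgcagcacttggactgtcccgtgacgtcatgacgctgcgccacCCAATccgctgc
Kif11 (chr19:37376182-37376381, plus strand): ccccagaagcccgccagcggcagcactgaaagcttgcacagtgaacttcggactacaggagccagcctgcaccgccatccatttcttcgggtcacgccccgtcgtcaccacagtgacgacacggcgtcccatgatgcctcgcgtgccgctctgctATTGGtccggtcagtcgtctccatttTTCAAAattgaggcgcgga
Ccnb1 (chr13:100786487-100786686, minus strand): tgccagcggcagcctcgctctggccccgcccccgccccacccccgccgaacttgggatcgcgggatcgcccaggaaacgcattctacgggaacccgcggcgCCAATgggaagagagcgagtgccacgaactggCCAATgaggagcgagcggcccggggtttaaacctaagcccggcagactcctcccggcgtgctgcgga
Kif23 (chr9:61946800-61946999, minus strand): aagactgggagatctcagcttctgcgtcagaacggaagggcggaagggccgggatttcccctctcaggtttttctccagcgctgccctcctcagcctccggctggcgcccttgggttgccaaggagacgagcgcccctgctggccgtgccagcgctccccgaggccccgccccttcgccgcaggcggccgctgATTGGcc
Rrm2 (chr12:24708054-24708253, plus strand): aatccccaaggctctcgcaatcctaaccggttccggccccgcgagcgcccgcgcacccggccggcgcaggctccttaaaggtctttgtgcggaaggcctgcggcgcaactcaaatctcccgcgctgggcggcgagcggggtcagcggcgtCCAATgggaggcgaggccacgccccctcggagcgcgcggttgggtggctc
Cdc20 (chr4:118437344-118437543, minus strand): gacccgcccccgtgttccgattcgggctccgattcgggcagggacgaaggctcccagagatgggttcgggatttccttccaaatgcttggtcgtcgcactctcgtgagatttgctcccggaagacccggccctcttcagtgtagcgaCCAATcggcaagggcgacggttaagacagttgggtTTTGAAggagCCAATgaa
Cdca3 (chr6:124829976-124830175, plus strand): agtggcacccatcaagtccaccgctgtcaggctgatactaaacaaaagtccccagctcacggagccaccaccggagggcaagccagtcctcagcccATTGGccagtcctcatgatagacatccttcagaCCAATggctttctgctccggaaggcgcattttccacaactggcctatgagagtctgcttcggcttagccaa

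In these stretches Mki67 held 2 CHR words and 3 CCAAT words, Cdc20 held 1 CHR word 18 to 13 bases before the start between CCAAT words, and Kif11 held 1 of each, both on the other strand. Ccnb1 and Cdca3 held 2 CCAAT words each and no CHR word in the stretch shown, and Cenpe, Kif23 and Rrm2 held a single CCAAT word. Over whole windows, from 250 bases before to 50 after the start, 32 members had a RefSeq promoter (Aurkb, Ccna2, Ccnd1, Ccne2, Foxm1, Kif20a, Mcm4 and Tpx2 had none in the table). TTTGAA was found in 16 of these 32 members, or 50%, against 20.2% of all 27025 genes with windows, and CCAAT in 26, or 81.2%, against 41.1%. An E2F word (any of TTTGGCGC, TTTCGCGC, TTTCCCGC and TTTGCCGC) was found in 7, or 21.9%, against 2.6%. All words were searched on both strands, none of them lies inside another, and a gene with several windows counted once. CHR and E2F words lay mostly in different members, and 1, Cdk1, held both. TTTGAA lay in 15 of the 20 windows of the G2 and mitosis roles and in 1 of the 12 of the G1 and S roles (Mcm2), and an E2F word in 6 of those 12 (Cdc6, Cdt1, Mcm3, Mcm5, Mcm6 and Mcm7, all in licensing) and in 1 of the 20 (Cdk1). Cdca3 and Kif23 were among the 15 with TTTGAA, which in them lay outside the stretches printed above. These matches describe the letters of the windows and are not shown to be bound sites.

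Gene counts per library ran between 8714228 and 13068564, so that 3 counts, the limit for a gene without counts, equal 0.229 to 0.335 CPM (the counts of a gene scaled to the TMM-adjusted size of its library), and all 40 members were among the 14489 genes that passed the filter on low counts. Markers of the named cells were present in each fraction but did not separate them cleanly. The 12 endothelial markers summed to 11540 to 16010 CPM in F-SEC against 31350 to 37190 CPM in Q-SEC, and to 3037 to 5303 CPM in F-HSC against 10680 to 15040 CPM in Q-HSC, and all 12 were higher in the SEC fraction under either treatment. The sum of the 9 stellate markers went against the labels in the CCl4 groups and with them in the controls. It was 3645, 5610 and 6633 CPM in the F-SEC libraries, against 1779, 2922 and 2647 CPM in the F-HSC libraries. In the control mice it was 2777, 402 and 261 CPM in Q-SEC against 3720, 977 and 771 CPM in Q-HSC. Singly, 2 of the 9 were higher in F-SEC than in F-HSC and 1 was lower in Q-SEC than in Q-HSC (edgeR, adjusted p under 0.05). SEC and HSC below mean the libraries with those labels. Markers of Kupffer cells and macrophages were abundant in the libraries labelled HSC, at 5559 to 13680 CPM in F-HSC and 8299 to 24170 CPM in Q-HSC. No endothelial, stellate or macrophage marker tested was at 0 in any library. In bulk samples of this kind a change in how many cells of a type were caught and a change in the RNA of each cell cannot be told apart.

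Levels between genes were compared as RPKM from the authors' table, which correct for length, and are given as mean ± SD (n = 3 each). Pcna, the replication clamp, and Ccnd1, the D-type cyclin that answers growth signals, stood far above the other members in every group, with 70.7 ± 30.8 and 60.8 ± 7.65 RPKM in F-SEC, against 49.5 ± 7.94 and 69.4 ± 10.2 RPKM in Q-SEC. The next highest level, that of the helicase subunit gene Mcm3, was 21.2 ± 11.7 RPKM in F-SEC and 21.5 ± 2.91 RPKM in Q-SEC. At the low end stood Cdc6 at 1.21 ± 1.30 RPKM in F-SEC against 0.352 ± 0.146 RPKM in Q-SEC, and Ccne1 at 1.55 ± 1.21 RPKM in F-SEC against 0.342 ± 0.149 RPKM in Q-SEC. These neighbours in the order did not differ beyond their spread. Ccnb1, which encodes cyclin B1, the partner of Cdk1 at mitotic entry, was at 7.80 ± 5.55 RPKM in F-SEC against 0.631 ± 0.169 RPKM in Q-SEC, and at 15.5 ± 6.25 RPKM in F-HSC against 6.45 ± 2.32 RPKM in Q-HSC.

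The libraries of the CCl4 groups differed widely from one another, and in the same way for nearly every member. F-SEC 2 was the lowest of the F-SEC libraries for 40 of 40 members and F-SEC 1 the highest for 37, with a median ratio of highest to lowest of 5.03 (1.22 to 10.1). F-HSC 2 was the lowest F-HSC library for 40 of 40 members, F-HSC 1 the highest for 28 and F-HSC 3 for 12, with a median ratio of 2.70. In the control groups the median ratio was 1.55 in Q-SEC and 1.57 in Q-HSC, where Q-HSC 3 was the highest for 34 members. Summed over the 40 members the level was 2388, 781 and 1600 CPM in F-SEC 1, 2 and 3 against 1112, 875 and 896 CPM in Q-SEC 1, 2 and 3. By this sum F-SEC 2 lay below every control library of its fraction. Ccnd1 alone gave 267 of its 781 CPM, and 418, 326 and 344 CPM of the sums in Q-SEC 1, 2 and 3. The 10 regulators of mitotic exit and the spindle checkpoint summed to 62.6 CPM in F-SEC 2, against 61.7, 44.2 and 32.4 CPM in Q-SEC. For the other G2 and mitosis roles the sum of F-SEC 2 lay within the Q-SEC range.

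**Figure D1:**
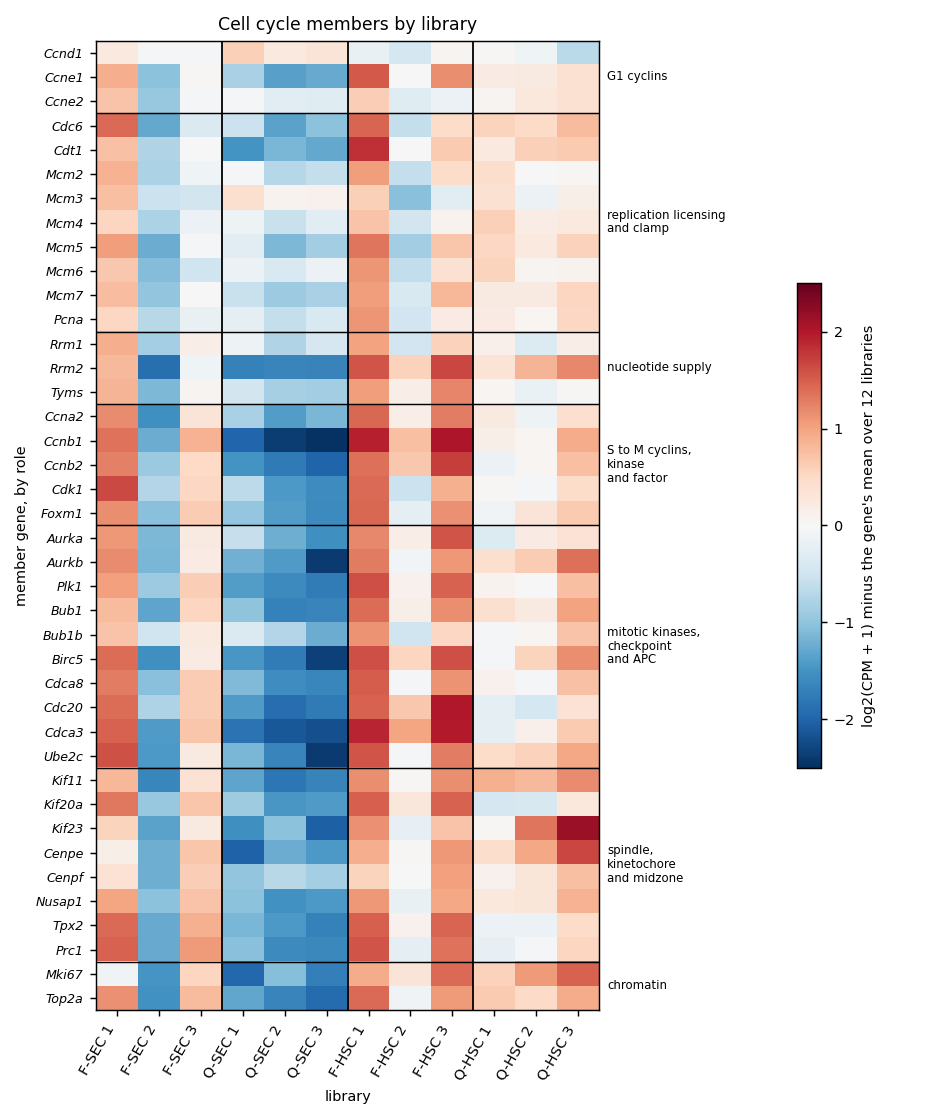
Level of the 40 members in each of the 12 libraries, as log2(CPM + 1) minus the mean of the gene over the libraries, with genes in rows by role and libraries in columns by group. F-SEC 2 and F-HSC 2 are the lowest columns of their groups, and the deepest blue lies in the mitotic rows of Q-SEC.

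With CCl4 most mitotic members rose in the SEC fraction. In F-SEC against Q-SEC, 22 of 40 members rose and 0 fell at an adjusted p under 0.05 (edgeR quasi-likelihood test, Benjamini-Hochberg over all 14489 genes), where 11.8% of all genes tested rose and 12.1% fell. The median change of the members was 1.80 on the log2 scale, against -0.05 over all genes, 38 of the 40 changes were positive, and the range ran from -0.34 for Ccnd1 to 3.45 for Ccnb1. The calls lay mostly in the late roles. Of the 25 members with roles in G2 and mitosis 19 rose (median log2 change 2.05), and of the 15 with roles in G1 and S phase 3 rose (median 0.67). An unadjusted p under 0.05 was reached by 28 members. The share of all genes at that limit was not counted, here or in the comparisons below.

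Among the cyclins and their kinase, Ccnb1 had 36.1, 5.13 and 25.3 CPM in the F-SEC libraries, against 2.66, 1.78 and 1.62 CPM in the Q-SEC libraries. The groups did not overlap, and the change was 3.45 ± 0.67 (log2, SE), a 10.9-fold higher level (adjusted p = 0.0059). Ccnb2, the other B-type cyclin, had 38.6, 7.65 and 22.2 CPM in F-SEC against 4.89, 3.87 and 3.13 CPM in Q-SEC and was 5.75-fold higher (log2 2.52 ± 0.54, adjusted p = 0.00849), again without overlap. Cdk1, the kinase that both activate, had 77.2, 14.0 and 34.8 CPM in F-SEC against 14.9, 8.26 and 7.45 CPM in Q-SEC. Its lowest F-SEC library lay just below the highest Q-SEC library, and the change was 2.04 ± 0.62 (adjusted p = 0.0358). Foxm1, the factor that drives the mitotic genes, rose by 1.95 ± 0.57 (adjusted p = 0.032), and Ccna2, cyclin A2 of S and G2 phase, changed by 1.52 ± 0.56 without passing the test (adjusted p = 0.0698).

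Regulators of mitotic exit and of the spindle checkpoint rose in 8 of 10 cases (median log2 change 2.27). Cdc20, the activator of the anaphase-promoting complex, had 41.2, 8.33 and 23.9 CPM in F-SEC against 5, 3.24 and 3.67 CPM in Q-SEC (log2 2.62 ± 0.55, adjusted p = 0.00793). Cdca3, an adaptor that helps to degrade an inhibitor of mitotic entry, had 36.4, 4.07 and 20.7 CPM in F-SEC against 2.76, 2.09 and 1.94 CPM in Q-SEC (log2 3.17 ± 0.67, adjusted p = 0.00817). For these genes every F-SEC library was above every Q-SEC library, although F-SEC 2 was far nearer to the controls than to F-SEC 1. Plk1, a kinase of spindle assembly and cytokinesis, had 31.1, 7.36 and 23.0 CPM in F-SEC against 5, 4.18 and 3.67 CPM in Q-SEC (log2 2.26 ± 0.54, adjusted p = 0.0137). The chromosomal passenger complex, which corrects faulty attachments to the spindle, had 3 members here and all 3 rose. Its subunit gene Cdca8 (borealin) had 30.0, 5.13 and 18.9 CPM in F-SEC against 4.89, 3.35 and 3.13 CPM in Q-SEC (log2 2.25 ± 0.60), the subunit gene Birc5 (survivin) changed by 2.63 ± 0.71 and its kinase gene Aurkb by 2.28 ± 0.66. Incenp, a further subunit gene of the complex and not a member, changed by 0.63 ± 0.38 and did not pass the test (adjusted p = 0.246). Ube2c, the ubiquitin-conjugating partner of the anaphase-promoting complex, rose by 2.52 ± 0.74, and Bub1, a checkpoint kinase, by 2.05 ± 0.61. Aurka, the kinase of the spindle poles, changed by 1.58 ± 0.58 (adjusted p = 0.0713) and Bub1b, a checkpoint protein, by 1.02 ± 0.44 (adjusted p = 0.115), and neither passed the test.

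Spindle and midzone genes rose in 6 of 8 cases (median 1.94). Nusap1, a microtubule bundling protein, had 25.2, 5.52 and 20.6 CPM in F-SEC against 5.53, 3.66 and 3.88 CPM in Q-SEC (log2 1.97 ± 0.52, adjusted p = 0.0221). Tpx2, which activates Aurora A on spindle microtubules, had 73.1, 10.6 and 50.2 CPM in F-SEC against 11.5, 9.31 and 7.55 CPM in Q-SEC (log2 2.24 ± 0.60, adjusted p = 0.0223). Kif20a, a kinesin of the central spindle, had 73.9, 14.7 and 47.9 CPM in F-SEC against 15.2, 9.94 and 10.4 CPM in Q-SEC (log2 1.94 ± 0.52, adjusted p = 0.0229). For these 3 genes F-SEC 2 lay below the highest control library, so the groups overlapped. Prc1, which crosslinks the microtubules of the midzone, rose by 2.34 ± 0.65, the spindle motor gene Kif11 by 1.93 ± 0.55 and the kinetochore motor gene Cenpe by 1.78 ± 0.53. The centralspindlin motor gene Kif23 changed by 1.61 ± 0.63 (adjusted p = 0.0846) and the kinetochore gene Cenpf by 1.01 ± 0.43 (adjusted p = 0.106), and neither passed the test. Exons of Kif20a overlap those of Cdc23 over 2659 bases and exons of Prc1 those of Rccd1 over 2665 bases on the opposite strand, so their counts are uncertain.

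Of the chromatin genes, Top2a, the topoisomerase that untangles sister chromatids, had 145, 22.4 and 114 CPM in F-SEC against 25.8, 20.1 and 16.5 CPM in Q-SEC. Its change of 2.17 ± 0.58 passed the test (adjusted p = 0.0217). Mki67, the proliferation marker that coats mitotic chromosomes, had 83.3, 31.4 and 129 CPM in F-SEC against 22.1, 42.0 and 26.6 CPM in Q-SEC. F-SEC 2 fell inside the control range, and the change of 1.43 ± 0.47 narrowly missed the threshold (adjusted p = 0.0502).

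**Figure D2:**
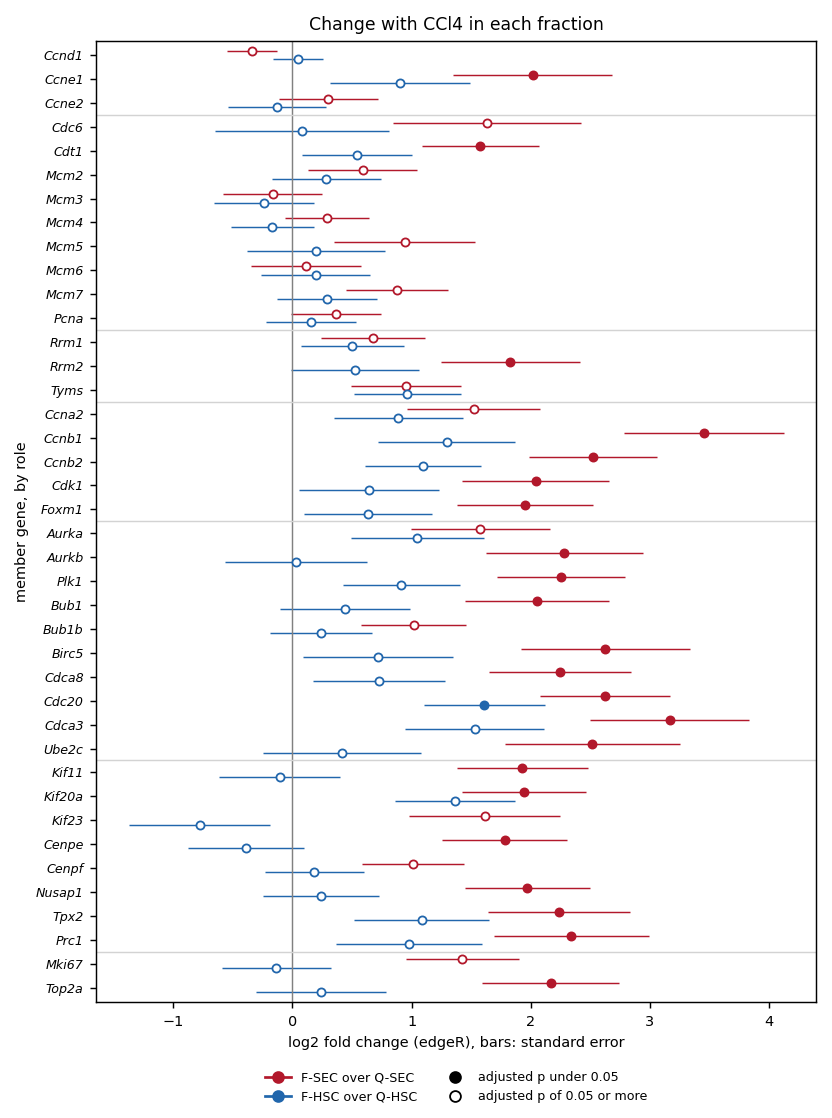
Change with CCl4 of each member in the SEC fraction (F-SEC over Q-SEC, red) and in the HSC fraction (F-HSC over Q-HSC, blue), as the edgeR log2 fold change with its standard error, for genes in rows by role. Filled points have an adjusted p under 0.05, 22 in red and 1 in blue, and the red points of the mitotic roles lie farthest to the right.

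The earlier roles moved less in the SEC fraction. Ccne1, cyclin E1 of S phase entry, rose at the edge of the test, with 6.88, 1.06 and 3.30 CPM in F-SEC against 1.38, 0.628 and 0.755 CPM in Q-SEC (log2 2.02 ± 0.67, adjusted p = 0.0492). Ccnd1 had 326, 267 and 270 CPM in F-SEC against 418, 326 and 344 CPM in Q-SEC, a change of -0.34 ± 0.21 that did not pass (adjusted p = 0.261), and its highest F-SEC library equalled the lowest Q-SEC library to 3 digits. Of the 9 licensing and clamp genes 1 rose, Cdt1, which loads the helicase with Cdc6 (log2 1.58 ± 0.49, adjusted p = 0.041), and the median of the 9 was 0.59. Mcm5, a subunit of the replicative helicase, had 79.0, 15.5 and 36.7 CPM in F-SEC against 31.3, 16.8 and 20.3 CPM in Q-SEC (log2 0.94 ± 0.59, adjusted p = 0.265), so that F-SEC 2 was below every control library. Pcna had 162, 69.9 and 99.1 CPM in F-SEC against 96.4, 74.2 and 86.6 CPM in Q-SEC (log2 0.37 ± 0.38, adjusted p = 0.512), and F-SEC 2 was again the lowest of the 6. Rrm2, the regulated subunit of ribonucleotide reductase, had 32, 4.16 and 16.6 CPM in F-SEC against 4.89, 5.02 and 4.96 CPM in Q-SEC. Its change was 1.83 ± 0.58 (adjusted p = 0.0435), with F-SEC 2 under the narrow range of the controls.

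The calls varied with the libraries included. Only 9 of the 40 members had F-SEC libraries that all lay above the Q-SEC libraries, where 19.7% of all genes did, so that by this measure the members were near the background. With single libraries left out, 4 members were called without F-SEC 1, 6 without F-SEC 3, 4 without Q-SEC 2, 4 without Q-SEC 3 and 29 without F-SEC 2, and 4 members (Ccnb1, Ccnb2, Cdc20 and Cdca3) were called under every alternative run. The share of all genes called in such runs is not given, here or in the comparisons below. Whether the members' counts shifted more than those of other genes therefore cannot be read from them. The size of the change moved less than the calls, with a median log2 change of 1.24 without F-SEC 1, 1.92 without F-SEC 3, 1.82 without Q-SEC 2, 1.81 without Q-SEC 3 and 2.23 without F-SEC 2. A fit of these 6 libraries alone called 9, with a median of 1.85. Same-numbered F-SEC and Q-SEC libraries deviated together, and with the replicate number as a block 22 members were called, Rrm2 no longer among them (adjusted p = 0.0561) and Ccna2 added (adjusted p = 0.0407).

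Markers of other cells also changed with CCl4. In F-SEC against Q-SEC, 7 of 12 Kupffer and macrophage markers rose (summed level 1702 to 3708 CPM in F-SEC against 293 to 999 CPM in Q-SEC), as did 3 of 9 stellate, 3 of 7 monocyte, 4 of 7 dendritic and 3 of 5 mesothelial and portal fibroblast markers, and 9 of 12 endothelial, 1 dendritic and 1 of 4 erythroid markers tested fell. F-SEC 2, the lowest library for every member, had the highest summed level of macrophage markers of the F-SEC libraries (3708 CPM, against 1785 CPM in F-SEC 1 and 1702 CPM in F-SEC 3). What part these cells had in the members' change was not tested.

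**Figure D3:**
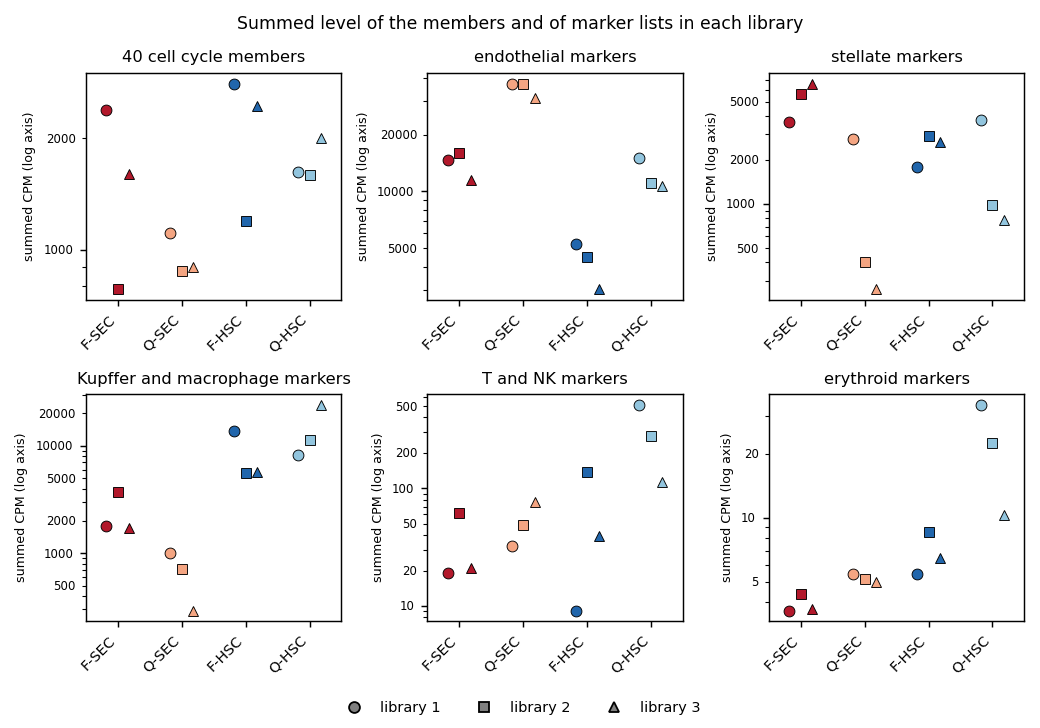
Summed CPM of the 40 members and of 5 marker lists in each library, on log axes, with symbols for the library numbers and colours for the groups. F-SEC 2 and F-HSC 2 are the lowest of their groups for the members, and macrophage and erythroid markers are higher in Q-HSC than in Q-SEC.

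In the HSC fraction few members were called with CCl4, and a member that was not called is not shown to be unchanged. In F-HSC against Q-HSC, 1 of 40 members rose and 0 fell (edgeR, adjusted p under 0.05), where 14.7% of all genes rose and 17.6% fell. The median change was 0.43 on the log2 scale, against -0.02 over all genes, and 33 of the 40 changes were positive. Cdc20 had 43.4, 24.6 and 62.9 CPM in F-HSC against 12.6, 10.8 and 19.4 CPM in Q-HSC. The libraries did not overlap, and the gene was 3.05-fold higher (log2 1.61 ± 0.51, adjusted p = 0.0331). This call was lost without F-HSC 1, F-HSC 3, Q-HSC 1 or Q-HSC 2, and its adjusted p ran between 0.0077 and 0.123 over the alternatives. The count of called members was 0 without any of those 4 libraries, 2 without F-HSC 2, 3 without F-SEC 1 and 7 without F-SEC 2, and the median change was 0.16 without F-HSC 1 and 0.80 without F-HSC 2. Exons of Cdc20 overlap those of Elovl1 on the opposite strand over 53 bases, so that, without known use of strand, some of its reads may be from Elovl1.

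The next members by p were also mitotic. Cdca3 had 49.7, 25.6 and 52.6 CPM in F-HSC against 10.6, 13.7 and 20.1 CPM in Q-HSC (log2 1.53 ± 0.58, adjusted p = 0.0665). Kif20a had 83.9, 35.6 and 82.4 CPM in F-HSC against 21.6, 22.0 and 35.0 CPM in Q-HSC (log2 1.36 ± 0.50, adjusted p = 0.0598). In both genes F-HSC 1 and 3 were well above the controls and F-HSC 2 only slightly. Ccnb1 had 54.9, 23.4 and 57.9 CPM in F-HSC against 15.1, 13.9 and 26.6 CPM in Q-HSC (log2 1.29 ± 0.57, adjusted p = 0.105), and Ccnb2 had 41.9, 25.3 and 53.8 CPM in F-HSC against 13.9, 16.0 and 26.7 CPM in Q-HSC (log2 1.10 ± 0.49, adjusted p = 0.107). For either cyclin F-HSC 2 lay under Q-HSC 3. These 4 and Cdc20 were the 5 members with an unadjusted p under 0.05. The libraries of F-HSC all lay above those of Q-HSC for 4 of 40 members (Tyms, Cdc20, Cdca3 and Kif20a), where 20.7% of all genes did.

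The other 35 members had an unadjusted p of 0.05 or more, with libraries that spread widely in F-HSC. Mki67 had 170, 112 and 238 CPM in F-HSC against 134, 188 and 249 CPM in Q-HSC (log2 -0.13 ± 0.46, adjusted p = 0.847). Top2a had 176, 61.6 and 137 CPM in F-HSC against 104, 90.8 and 124 CPM in Q-HSC (log2 0.24 ± 0.54, adjusted p = 0.767). For Mki67 the F-HSC libraries lay within or below the control range, and for Top2a the F-HSC libraries lay on either side of them. Cdk1 had 65.8, 16.2 and 45 CPM in F-HSC against 24.4, 23.5 and 33.5 CPM in Q-HSC, Mcm5 had 97.6, 20.3 and 62.1 CPM in F-HSC against 54.6, 45 and 57.2 CPM in Q-HSC, and Pcna had 244, 80.7 and 131 CPM in F-HSC against 130, 117 and 162 CPM in Q-HSC, so that F-HSC 2 was the lowest of 6 libraries for each. Ccne1 had 11.2, 3.20 and 8.35 CPM in F-HSC against 3.81, 3.91 and 4.47 CPM in Q-HSC (adjusted p = 0.261), and Ccnd1 had 242, 203 and 292 CPM in F-HSC against 282, 256 and 174 CPM in Q-HSC (adjusted p = 0.877). The lowest change was that of Kif23, at -0.78 ± 0.59, which had 48.1, 18.3 and 35.8 CPM in F-HSC against 21.9, 55.3 and 98.5 CPM in Q-HSC. Beside these values, 4 of 7 hepatocyte markers rose in F-HSC against Q-HSC (summed level 10660 to 26450 CPM in F-HSC against 2274 to 5958 CPM in Q-HSC). So did 4 of 7 monocyte markers, which summed to 13130, 2458 and 4475 CPM in F-HSC against 544, 1162 and 1592 CPM in Q-HSC. Meanwhile 10 of 12 endothelial, 5 of 7 dendritic, 3 of 4 erythroid, 3 of 10 T and NK and 3 of 12 macrophage markers fell, whose part was not tested.

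**Figure D4:**
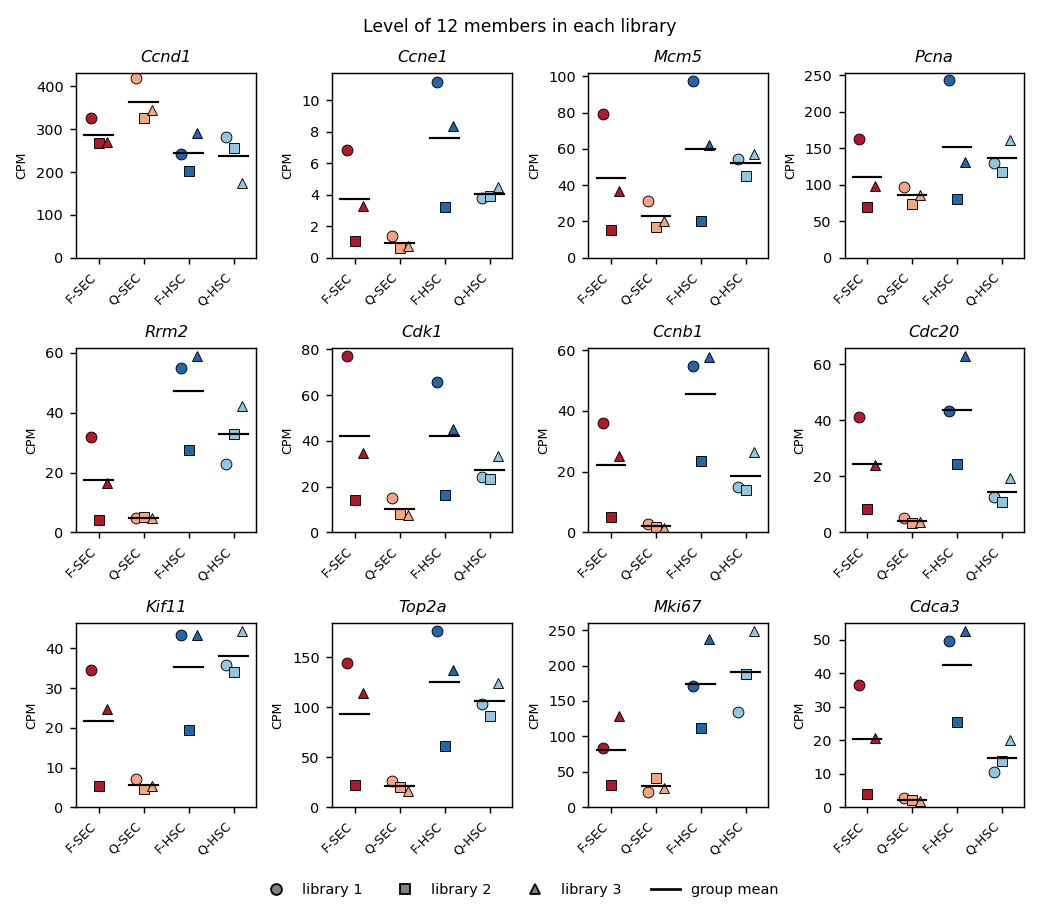
Level of 12 members in CPM (linear axes starting at 0) in each library, with F-SEC, Q-SEC, F-HSC and Q-HSC from left to right, a symbol for each library number and a bar for the group mean. Cyclin B1, Cdc20 and Cdca3 separate F-SEC from Q-SEC in every library, Mki67 does not, and library 2 is the lowest of each CCl4 group.

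Whether CCl4 acted differently on the 2 fractions was tested as the difference of the changes, F-SEC over Q-SEC minus F-HSC over Q-HSC. No member was called by edgeR (0 of 40, against 0.801% of all genes in either direction), and DESeq2 called 1, Cenpe. An unadjusted p under 0.05 was reached by 8, with the share of all genes again not counted. The median difference was 1.23 on the log2 scale and 37 of 40 were positive, and the median was 0.57 without F-SEC 1 and 1.68 without F-SEC 2. The 8 were mitotic genes and Mki67. Kif23 differed by 2.39 ± 0.86 (adjusted p = 0.187), Aurkb by 2.25 ± 0.88 (adjusted p = 0.217), Cenpe by 2.17 ± 0.72 (adjusted p = 0.154) and Ccnb1 by 2.16 ± 0.86 (adjusted p = 0.225), and the others were Kif11, Nusap1, Top2a and Mki67. The larger number of calls in F-SEC than in F-HSC is therefore not shown to be a difference between the fractions for any member.

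In control livers the fractions stood apart. In Q-SEC against Q-HSC, 21 of 40 members were lower and 1 was higher (edgeR, adjusted p under 0.05), where 14.3% of all genes were lower and 15.5% higher, and the median difference was -1.80 on the log2 scale, against 0.01 over all genes. All libraries of Q-SEC lay below all of Q-HSC for 37 members, where 22.4% of all genes did, and the other members were Mcm3 and Rrm1, whose libraries overlapped, and Ccnd1. By role, 18 of 25 members of G2 and mitosis were lower (median -2.12) and 3 of 15 of G1 and S phase (median -0.69).

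Mki67 had 22.1, 42.0 and 26.6 CPM in Q-SEC against 134, 188 and 249 CPM in Q-HSC. It was 6.30-fold lower in Q-SEC (log2 -2.66 ± 0.49, adjusted p = 0.00259), the lowest p of the members in any comparison. Cenpe had 3.40, 6.59 and 5.61 CPM in Q-SEC against 23.4, 33.9 and 56.1 CPM in Q-HSC (log2 -2.86 ± 0.54, adjusted p = 0.00277). Kif11, the motor that pushes spindle poles apart, had 7.02, 4.71 and 5.29 CPM in Q-SEC against 35.8, 34.0 and 44.5 CPM in Q-HSC (log2 -2.75 ± 0.56, adjusted p = 0.00423). For each of these 3 genes the highest Q-SEC library lay below the lowest Q-HSC library. Ccnb1, with the values given above, differed most (log2 -3.19 ± 0.67, a 9.12-fold lower level in Q-SEC, adjusted p = 0.00489). Kif23 had 6.7, 10 and 4.42 CPM in Q-SEC against 21.9, 55.3 and 98.5 CPM in Q-HSC (log2 -3.05 ± 0.65, adjusted p = 0.00538). Macrophage markers summed to 8299, 11230 and 24170 CPM in the same Q-HSC libraries. Kif23, Mki67, Cenpe, Rrm2 and Aurkb had this order of the Q-HSC libraries, and Kif11 and Ccnb1 did not. The part of macrophages in these levels was not tested. Rrm2 had 4.89, 5.02 and 4.96 CPM in Q-SEC against 22.9, 33.0 and 42.4 CPM in Q-HSC (log2 -2.72 ± 0.59, adjusted p = 0.00596). Aurkb had 4.04, 3.35 and 1.19 CPM in Q-SEC against 14.3, 16.9 and 28.9 CPM in Q-HSC (log2 -2.80 ± 0.67, adjusted p = 0.00938).

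Ccnb2 (log2 -2.25 ± 0.53), Cdca3 (-2.70 ± 0.66) and Top2a (-2.35 ± 0.58) followed in the same direction, with adjusted p values of 0.00937, 0.0109 and 0.0111. Ccne1 was also lower in Q-SEC (-2.13 ± 0.67, adjusted p = 0.0342). Ccnd1 was the exception, with 418, 326 and 344 CPM in Q-SEC against 282, 256 and 174 CPM in Q-HSC, a higher level in every Q-SEC library (log2 0.61 ± 0.21, adjusted p = 0.0466). That call was lost under 10 of the 14 alternatives run for it. Cdk1 (-1.41 ± 0.61, adjusted p = 0.107), Mcm5 (-1.20 ± 0.59, adjusted p = 0.156) and Pcna (-0.67 ± 0.38, adjusted p = 0.214) did not pass the test. The count of called members was 13 without Q-SEC 2 (median -1.68) and 12 without Q-SEC 3 (median -1.70), and 12 of the 22 were called under every alternative run. Of the members higher in F-SEC than in Q-SEC, 18 were also lower in Q-SEC than in Q-HSC, a count that shares the Q-SEC libraries on both sides and is no independent evidence.

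The fractions of control liver also differed in the cells that such preparations can hold. In Q-SEC against Q-HSC, 12 of 12 macrophage markers were lower (summed level 293 to 999 CPM in Q-SEC against 8299 to 24170 CPM in Q-HSC), 6 of 10 T and NK markers, 6 of 7 dendritic, 5 of 7 monocyte, 3 of 6 B cell and 4 of 4 erythroid markers tested were lower, and 6 of 7 neutrophil markers were higher. Erythroid markers summed to 5.42, 5.13 and 4.96 CPM in Q-SEC against 34.0, 22.4 and 10.3 CPM in Q-HSC. Their share in the members' difference was not tested.

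In fibrotic livers most members were lower in F-SEC than in F-HSC, and no difference passed the test. In F-SEC against F-HSC, 0 of 40 members were called by edgeR, where 12.6% of all genes were higher and 12.8% lower, 2 had an unadjusted p under 0.05 (Rrm2 and Mki67) and DESeq2 called 1, Rrm2. The median difference was -0.54 on the log2 scale and 38 of 40 were negative, and the median was -1.11 without F-SEC 1, -0.16 without F-SEC 2, -0.24 without F-HSC 1 and -0.83 without F-HSC 2. Rrm2 had 32, 4.16 and 16.6 CPM in F-SEC against 55.1, 27.4 and 58.9 CPM in F-HSC (log2 -1.42 ± 0.55, adjusted p = 0.0817), and Mki67 had 83.3, 31.4 and 129 CPM in F-SEC against 170, 112 and 238 CPM in F-HSC (log2 -1.10 ± 0.47, adjusted p = 0.109). For both genes the highest F-SEC library lay above the lowest F-HSC library. Cdk1 had means of 42.0 ± 32.2 CPM in F-SEC and 42.3 ± 24.9 CPM in F-HSC (SD, n = 3 each), with a difference of -0.01 ± 0.58. Same-numbered F-SEC and F-HSC libraries deviated together, and 34 of 40 members, Rrm2 and Mki67 among them, were lower in F-SEC than in F-HSC at all 3 numbers. The share of all genes with this pattern is not given here. Summed over the members the level was 2388, 781 and 1600 CPM in F-SEC 1, 2 and 3 against 2807, 1192 and 2444 CPM in F-HSC 1, 2 and 3. With the replicate number as a block the median difference was -0.62, the lowest adjusted p was 0.0539 for Rrm2, and the count of called members was also 0. It was 2 without F-SEC 1. In this comparison all 12 endothelial markers and 2 of 9 stellate markers were higher, and 8 of 12 macrophage and 7 of 7 hepatocyte markers were lower, whose part was not tested.

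**Figure D5:**
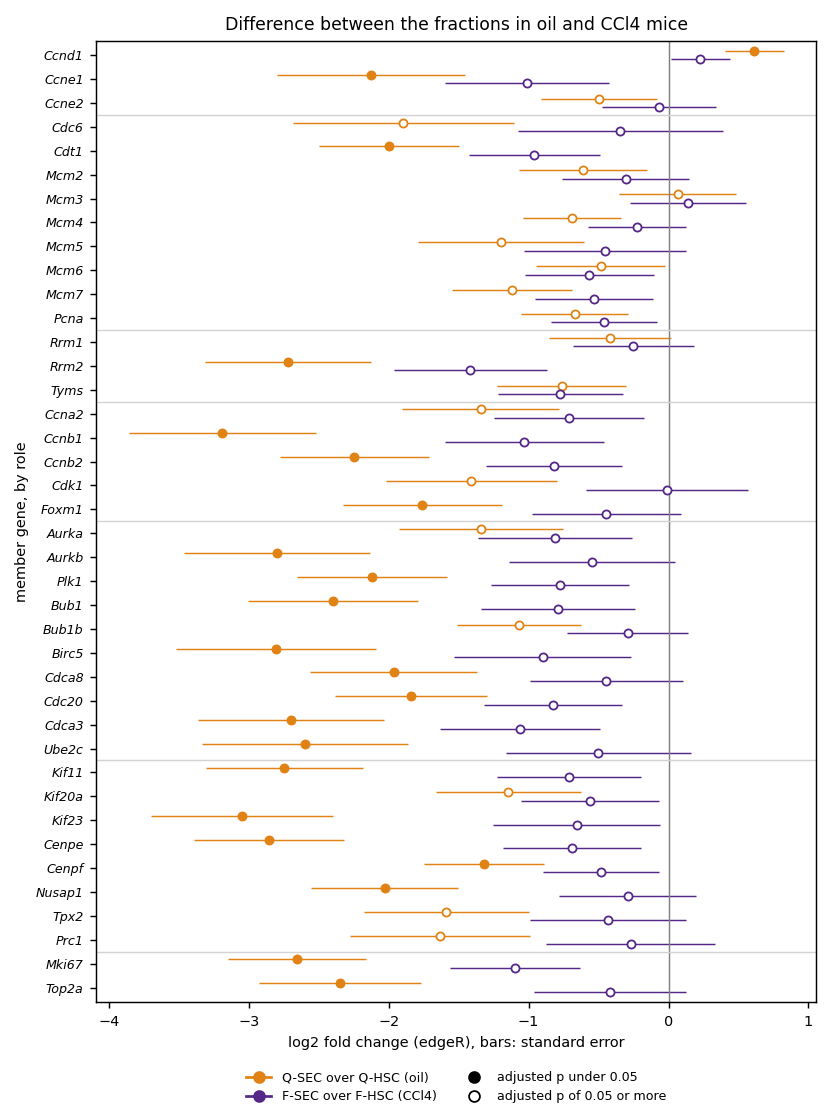
Difference between the fractions for each member in oil mice (Q-SEC over Q-HSC, orange) and in CCl4 mice (F-SEC over F-HSC, purple), as the edgeR log2 fold change with its standard error. Filled points have an adjusted p under 0.05, which 22 orange and 0 purple points do, and Ccnd1 is the filled point right of 0.

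Other genes of the pathway behaved much as the members did. Of 64 further proliferation genes, 21 rose and 1 fell in F-SEC against Q-SEC (median log2 change 1.5), 2 rose and 1 fell in F-HSC against Q-HSC (median 0.33), and 1 was higher and 31 were lower in Q-SEC against Q-HSC (median -1.41), against the same shares of all genes as above. Cks2, a small partner of Cdk1, had 34.0, 11.8 and 20.1 CPM in F-SEC against 6.59, 5.33 and 4.32 CPM in Q-SEC, without overlap (log2 2.02, adjusted p = 0.00428). Kif15, a spindle kinesin that works beside Kif11, had 2.66, 3.03 and 2.37 CPM in Q-SEC against 15.8, 20.8 and 31.6 CPM in Q-HSC, also without overlap (log2 -3.07, adjusted p = 0.00186).

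The 30 regulators tested, which hold the inhibitors, retinoblastoma family, E2F factors and other cyclins and kinases, had no common direction. In F-SEC against Q-SEC 4 rose and 1 fell (median log2 change -0.05), in F-HSC against Q-HSC 4 rose and 6 fell (median -0.08), and in Q-SEC against Q-HSC 3 were higher and 6 lower (median 0.03). Of all genes, 11.8% rose and 12.1% fell in the first comparison and 14.7% and 17.6% in the second. In the third 15.5% were higher and 14.3% lower. The counts of called regulators were thus near the background, and those named below were picked for their low adjusted p. Rb1, the retinoblastoma protein that restrains E2F, fell in the CCl4 groups of both fractions. It had 35.6, 31.9 and 28.2 CPM in F-SEC against 76.1, 70.2 and 69.3 CPM in Q-SEC (log2 -1.17, adjusted p = 0.000819), and 37.9, 34.7 and 27.4 CPM in F-HSC against 53.9, 56.1 and 62.5 CPM in Q-HSC (log2 -0.79, adjusted p = 0.00355). In contrast to the members, F-SEC 2 and F-HSC 2 lay between the other libraries of their groups. Rbl2, the p130 protein of the DREAM complex, had 42.2, 50.9 and 52.1 CPM in F-SEC against 49.9, 51.4 and 50.6 CPM in Q-SEC. It fell in the HSC fraction, with 56.1, 60.8 and 54.6 CPM in F-HSC against 91.3, 83.2 and 75.0 CPM in Q-HSC (log2 -0.54, adjusted p = 0.0085). The control fractions also differed in it, with a lower level in Q-SEC than in Q-HSC (log2 -0.72, adjusted p = 0.00171). Cdkn1c, an inhibitor of G1 kinases, was higher in Q-SEC than in Q-HSC (log2 1.34, adjusted p = 0.00269) and in F-SEC than in F-HSC (1.28, adjusted p = 0.00474), and Ccng1, a cyclin induced by p53, was lower in Q-SEC than in Q-HSC (-0.55, adjusted p = 0.00913) and in F-SEC than in F-HSC (-0.69, adjusted p = 0.00424).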

How the data were processed

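The submitters' processing notes name bcl2fastq, TopHat2 2.0.13 and the mm10 genome. The deposited counts are the authors' read counts per entry, and the counting tool and its use of strand are not given in the sources used here, so members with exons on the opposite strand to another gene (Ccnd1, Ccne2, Mcm7, Ccna2, Plk1, Cdc20, Kif20a, Nusap1 and Prc1) are uncertain. Levels between genes used the deposited RPKM, in which those counts had been scaled by column total and length by the authors. Of 56826 lines, 1 held no values and 33353 cDNA clone entries were set aside. In every group 1 title lacks a number and that library was taken as 1.

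The test was edgeR 4.0.16 in R 4.3.3 on the counts (filterByExpr, TMM, robust quasi-likelihood fit with a mean for each group, 12 libraries, 8 residual df, common BCV of 0.28), with Benjamini-Hochberg adjustment over 14489 genes and a threshold of 0.05, after a test on simulated data. CPM are counts divided by the TMM-scaled library size. Libraries of equal number were taken as paired where each correlation of their deviations from the group means exceeded 0.1. F-SEC and F-HSC met this (0.47, 0.45, 0.43), as did F-SEC and Q-SEC (0.31, 0.25, 0.16). F-HSC and Q-HSC (-0.09, 0.24, -0.28) and Q-SEC and Q-HSC (0.53, 0.50, -0.01) did not. Alternatives were RLE scaling, no filter beyond 1 count, DESeq2 1.42.0, the replicate block, omission of each library, of library 1 of each group, or of Rn45s and Lars2, and fits of the 6 libraries compared. A fit without library 2 of each group was added after seeing the data. Members and lists were chosen with earlier results of these data known. Single members named with values were Mki67, Top2a, Ccnb1, Ccnd1, Ccne1, Cdk1, Pcna and Mcm5 and, in each comparison, the called members of lowest adjusted p, up to 10. Other members were given by their changes, and other pathway genes were the 6 of lowest adjusted p, with Incenp added beside its complex. Promoters are from the RefSeq annotation of GRCm38.p6.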

Additional observations from a re-analysis of the deposited data

How the results depend on the processing

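No change of direction occurred among the called members under any alternative run. In F-SEC against Q-SEC, 4 of 40 members were called with only libraries 2 and 3 of each group, 9 in a fit of the 6 libraries compared (with a median log2 change of 1.85, against 1.80), 20 with only libraries 1 and 3 (an alternative chosen after seeing the data), 26 by DESeq2 and 22 with the replicate block, and 4 to 29 with 1 library left out. In F-HSC against Q-HSC, 0 were called with only libraries 2 and 3 and 3 by DESeq2, with only libraries 1 and 3, or in the 6-library fit, and 0 to 7 with 1 library left out. For the difference of the changes DESeq2 called 1. In Q-SEC against Q-HSC, 34 were called in the 6-library fit, and 12 to 26 with 1 library left out. In F-SEC against F-HSC, 1 was called by DESeq2 and 1 with only libraries 2 and 3, and 0 to 2 with 1 library left out. The share of all genes called under each alternative is not given here, and the cause of these shifts was not tested. The pairing of F-HSC with Q-HSC and of Q-SEC with Q-HSC by number was not borne out, and there the replicate block gave 2 and 32 called members. Where 1 library was left out, a group of 2 shared the spread estimated over all groups. Low members, such as Ccne1 in Q-SEC, rest on few reads, and with 3 libraries a group the spread within F-SEC limits what can be called.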
